A study of Mus musculus with 14 samples.

Results

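The 10 genes described here encode transcription factors that set the identity of NK (natural killer) cells and their relatives, the type 1 innate lymphoid cells (ILC1s), both of which act without a rearranged antigen receptor. They were taken by symbol (Eomes, Tbx21, Zfp683, Prdm1, Zeb2, Myb, Nfil3, Irf8, Ikzf2 and Ikzf3) from a table of 46078 Ensembl genes, and all 10 were found and passed the filter on low counts, as did 26990 genes in all. RNA was sequenced from immature NK cells (iNK) and immature ILC1s (iILC1) sorted from the bone marrow of C57BL/6 mice aged 8 weeks, at 2000 cells per sample. Control mice had the genotype Il-15-flox/KO, and the conditional knockouts (cKO) had the genotype Vav-Cre;Il-15-flox/KO. All mice therefore carried a knockout and a floxed allele of Il15, the gene for interleukin 15 (IL-15), so the controls were not wild type. The Vav promoter drives Cre in blood-forming cells and their progeny, and Il15 in other cells is not its target. For iNK there were 3 control and 4 cKO libraries, and for iILC1 likewise 3 and 4.

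IL-15 signals through STAT5 and is needed for NK cells and ILC1s to develop and survive. Among the factors that act alongside it, T-bet (from Tbx21) is needed by both cell types, whereas EOMES (from Eomes) marks NK cells and is low in most ILC1s. Hobit (from Zfp683) and BLIMP1 (from Prdm1) are related zinc finger repressors used by tissue-resident lymphocytes, and ZEB2 and Aiolos (from Ikzf3) are tied to later NK maturation. Helios (from Ikzf2) belongs to the same Ikaros family as Aiolos.

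Library totals were 3512796 to 4933284 counts in control iILC1, the shallowest group, and 5478641 to 12572326 in the other 3 groups. Of the genes whose products the sort gates used, Itga1, Il7r and Itga2 separated the cell types, whereas Cd27 and Itgam overlapped. Itga1, which encodes the iILC1 gate protein CD49a, lay at 42.9 to 81.9 CPM (counts scaled to library size with TMM factors) in iILC1 and at 7.95 to 14.6 CPM in iNK libraries. Il7r lay at 351 to 718 CPM in iILC1 and at 6.71 to 27 CPM in iNK libraries. Itga2 lay at 73.8 to 103 CPM in iILC1 and at 119 to 306 CPM in iNK libraries. Cd27 lay at 86.1 to 180 CPM in iILC1 and at 111 to 247 CPM in iNK libraries. For Itgam the ranges were 27.1 to 132 CPM in iILC1 and 53.7 to 165 CPM in iNK libraries. The gate excluded CD3, yet Cd3e averaged 64 CPM in control and 27.5 CPM in cKO iILC1, against 3.31 and 3.66 CPM in iNK. In 1318 odour and pheromone receptor genes, which lymphocytes should not use, the summed level was 1358 to 2544 CPM in iNK and 1539 to 2988 CPM in iILC1 libraries, which measures background reads. The targeted gene Il15 lay at 8.16 to 11.1 CPM in control and 8.58 to 12.3 CPM in cKO iNK, and at 11.7 to 13.7 CPM in control and 11.2 to 25.0 CPM in cKO iILC1, so it was not lower in cKO libraries. These counts span all exons and every mouse carried a knockout allele, so they do not test the deletion. The library of cKO iILC1 replicate 1 had the least background of its group and the highest level in that group of Tbx21, Zfp683, Zeb2, Myb, Nfil3, Irf8, Ikzf2 and Ikzf3.

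Between the cell types, Eomes, Myb, Prdm1 and Irf8 were lower and Zfp683 and Ikzf2 higher in iILC1 than in iNK cells of both genotypes. Zeb2 was also lower in cKO iILC1. Tbx21, Nfil3 and Ikzf3 passed the test between cell types in neither genotype. Of the 10 factors, edgeR's quasi-likelihood test (Benjamini-Hochberg adjusted p under 0.05) called 6 in control cells, against 3.91% of all genes. It placed 4 lower and 2 higher in iILC1, where 3.00% of all genes were lower and 0.911% higher. In cKO cells it called 7, against 3.42% of all genes, with 5 lower (1.68% of all genes) and 2 higher (1.74%). The libraries of the cell types did not overlap for 7 factors in control and 6 in cKO cells, where 25.0% and 6.61% of all genes did not overlap. The median log2 difference of the 10 was −0.79 in control and −0.69 in cKO cells, against 0.16 and 0.01 over all genes tested.

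**Figure D1:**
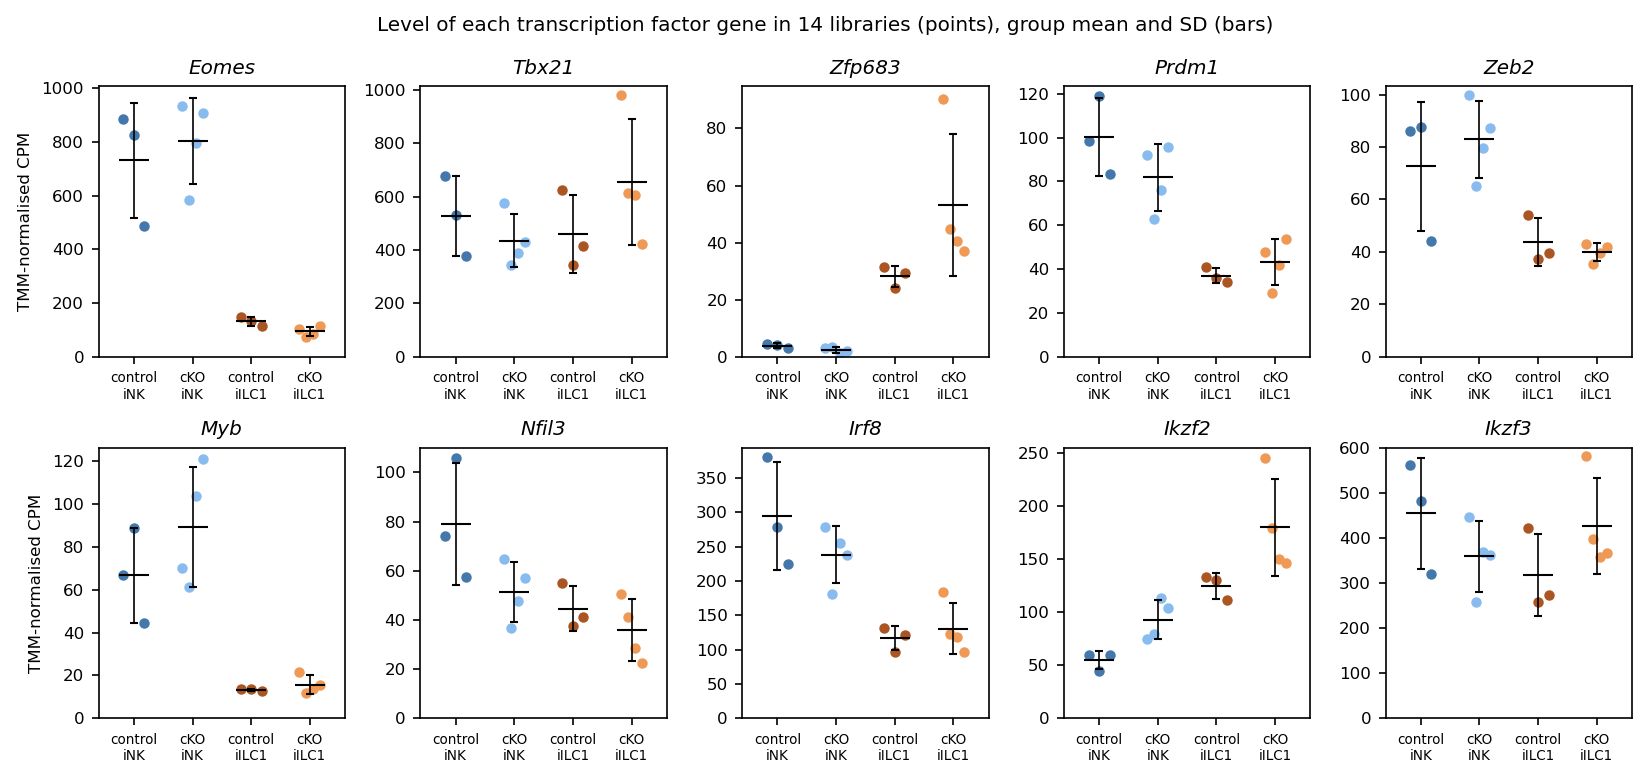
TMM-normalised CPM of the 10 genes in each of the 14 libraries (points), with the group mean and SD (black bars), on linear axes that start at 0. Eomes and Myb sit far lower, and Zfp683 higher, in both iILC1 groups, while the 4 groups overlap for Tbx21 and Ikzf3.

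Eomes, the T-box factor of the NK lineage (ENSMUSG00000032446, mm10 chromosome 9, 118478212 to 118486132, plus strand), had the largest decrease of the 10 in iILC1 in both genotypes. It lay at 884, 824 and 486 CPM in control iNK replicates 1 to 3, and at 932, 582, 794 and 907 CPM in cKO iNK replicates 1 to 4. In control iILC1 it lay at 147, 134 and 114 CPM, and in cKO iILC1 at 104, 74, 85.6 and 114 CPM. Every iNK library was above every iILC1 library, whereas the genotypes overlapped in both cell types. The difference of iILC1 from iNK was −2.47 on the log2 scale in control (SE 0.275, adjusted p = 8.7e-07), a 5.55-fold lower level. In cKO it was −3.09 (SE 0.244, adjusted p = 3.58e-10), an 8.52-fold lower level. Because each library holds RNA pooled from many cells, fewer Eomes-positive cells and less Eomes RNA per cell cannot be told apart, here or for the other factors.

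Tbx21, for T-bet (ENSMUSG00000001444, chromosome 11, 97098071 to 97115331, minus strand), showed no called difference between any of the groups compared. Its levels were 677, 530 and 377 CPM in control iNK and 577, 345, 390 and 430 CPM in cKO iNK. They were 625, 343 and 416 CPM in control iILC1 and 981, 612, 606 and 421 CPM in cKO iILC1, so that all 4 groups overlapped. The difference of iILC1 from iNK was −0.20 in control (95% interval −0.81 to 0.41, adjusted p = 0.717) and 0.59 in cKO cells (95% interval 0.06 to 1.12, adjusted p = 0.382). With the receptor gene background as a covariate the latter became 0.74 (adjusted p = 0.000578), and its adjusted p was 0.086 to 0.6 under the other 16 alternatives. That background averaged 1787 and 2064 CPM in control and cKO iNK and 2650 and 2350 CPM in control and cKO iILC1. A fit with this covariate can therefore shift a cell type difference, here and for the other factors.

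The promoters of these 2 T-box genes are shown because the pair separated between the cell types, with Eomes far lower in iILC1 and Tbx21 at overlapping levels. They are RefSeq sequences of build GRCm38.p6, from 250 bases before to 50 bases after the gene's start, read 5′ to 3′ on the gene's strand, at chr9:118477939-118478238 for Eomes and chr11:97115282-97115581 for Tbx21. Capitals mark matches, on either strand, to any of 9 motifs. These were a T-box half-site (AGGTGTGA) and its core (AGGTGT), STAT5 (TTCNNNGAA), ZEB (CAGGTG), IRF (AANNGAAA), NFIL3 (TTANGTAA), MYB (CAACNG), Ikaros (TGGGAA) and RUNX (TGTGGT). The half-site contains the core, and the ZEB motif shares 5 of its bases with it.
Eomes: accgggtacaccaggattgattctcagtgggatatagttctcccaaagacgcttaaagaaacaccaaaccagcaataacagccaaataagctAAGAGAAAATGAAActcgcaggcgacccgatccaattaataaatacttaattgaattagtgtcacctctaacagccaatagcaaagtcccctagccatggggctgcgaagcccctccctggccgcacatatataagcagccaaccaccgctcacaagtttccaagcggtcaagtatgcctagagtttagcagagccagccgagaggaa
Tbx21: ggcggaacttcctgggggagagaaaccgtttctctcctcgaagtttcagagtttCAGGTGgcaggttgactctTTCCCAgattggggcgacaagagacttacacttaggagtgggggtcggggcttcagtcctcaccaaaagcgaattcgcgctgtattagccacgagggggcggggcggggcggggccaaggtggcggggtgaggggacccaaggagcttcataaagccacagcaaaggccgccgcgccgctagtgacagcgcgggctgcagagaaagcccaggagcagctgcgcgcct
In the Eomes window the capitals are 2 overlapping IRF matches, from 158 to 145 bases before the start, a motif found in 23.9% of 32851 promoter windows. In the Tbx21 window they are a ZEB match that begins 196 bases before the start (20.2% of windows) and an Ikaros match that begins 177 bases before it (25.6%). Neither window held the letters of the STAT5 motif (8.3% of windows) or the T-box core (13.7%). These are matches of letters, which show no binding.

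Taken per kilobase of exon, the scale on which genes can be set side by side, Tbx21 had the highest level of the 10 in control iNK (212 ± 60.2 CPM per kb, SD, n = 3), control iILC1 (185 ± 58.7, SD, n = 3) and cKO iILC1 (263 ± 94.4, SD, n = 4). Eomes was next in control iNK (176 ± 51.6 CPM per kb, SD, n = 3) and first in cKO iNK (193 ± 38.4, SD, n = 4). In iILC1 it stood at 31.7 ± 4.08 CPM per kb in control and 22.7 ± 4.3 in cKO, below Ikzf3 in both genotypes. The ratio of Eomes to Tbx21 per kilobase was 0.771 to 0.931 in control iNK and 0.967 to 1.26 in cKO iNK. It was 0.141 to 0.234 in control iILC1 and 0.0633 to 0.162 in cKO iILC1. Both genes were thus about equally abundant in iNK cells, and T-bet transcripts predominated in every iILC1 library. Between genotypes the ratios overlapped in iILC1 and did not in iNK, where they were higher in cKO. These ratios are a description, with no test.

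**Figure D2:**
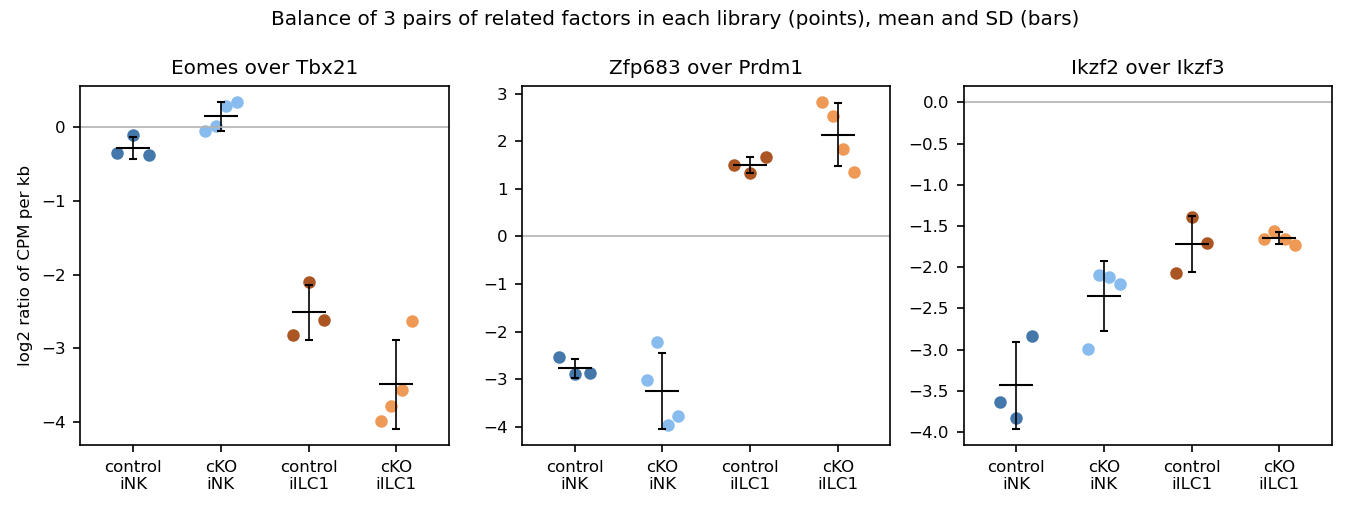
Log2 ratio of CPM per kb for 3 pairs of related factors in each library (points), with the group mean and SD (bars), by group. A value of 0 is an equal level per kilobase. Eomes over Tbx21 lies near 0 in iNK and below −2 in iILC1, and Zfp683 over Prdm1 lies below 0 in iNK and above 0 in iILC1.

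Zfp683 and Prdm1, the genes for Hobit and BLIMP1, differed between the cell types in opposite directions. Zfp683 (ENSMUSG00000049410, chromosome 4, 134053838 to 134058996, plus strand) lay at 4.53, 4.26 and 3.04 CPM in control iNK and at 3.06, 3.61, 1.3 and 1.87 CPM in cKO iNK. In control iILC1 it lay at 31.3, 24.2 and 29.3 CPM, and in cKO iILC1 at 90.4, 44.7, 40.6 and 37.1 CPM. All iILC1 libraries exceeded all iNK libraries, and cKO iILC1 replicate 1 stood well above its group. The difference of iILC1 from iNK was 2.84 in control (SE 0.359, adjusted p = 7.26e-06) and 4.46 in cKO cells (SE 0.325, adjusted p = 8.44e-11) on the log2 scale, or 7.13-fold and 21.9-fold. The iNK values rest on 10 to 29 reads per library. Per kilobase they averaged 2.68 CPM in control and 1.67 CPM in cKO iNK, where 10.2% and 28.9% of the silent receptor genes lay higher, so Zfp683 in iNK was within the range of background reads. The medians of the silent receptor genes were 0.761 and 0.766 CPM per kb in these groups. Without cKO iILC1 replicate 1 the cKO difference was 4.10 (adjusted p = 1.87e-11).

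Prdm1 (ENSMUSG00000038151, chromosome 10, 44437177 to 44528501, minus strand) ranged from 83.2 to 119 CPM in control iNK and from 63 to 95.6 CPM in cKO iNK. It ranged from 34.3 to 40.9 CPM in control and from 29 to 53.8 CPM in cKO iILC1, so that no iILC1 library reached an iNK library. The log2 difference of iILC1 from iNK was −1.44 in control (SE 0.243, adjusted p = 0.000447) and −0.92 in cKO (SE 0.206, adjusted p = 0.00567). The ratio of Zfp683 to Prdm1 per kilobase was 0.134 to 0.172 in control iNK and 0.0636 to 0.214 in cKO iNK, and 2.52 to 3.19 in control and 2.58 to 7.07 in cKO iILC1. Zfp683 exceeded Prdm1 per kilobase in every iILC1 library and in no iNK library. BLIMP1 is also the factor of plasma cells, and 7 plasma cell genes summed to 389 to 516 CPM in control iNK, 293 to 440 in cKO iNK, 209 to 295 in control iILC1 and 213 to 353 in cKO iILC1. Txndc5, a folding enzyme of secretory cells, made up most of that difference, at 297 and 269 CPM in control and cKO iNK and 111 and 86.5 CPM in control and cKO iILC1. The median log2 difference of the 7 between the cell types was 0.28 in control and −0.17 in cKO. Txndc5 was called lower in iILC1 of both genotypes, and Xbp1 was called higher in cKO iILC1. None of the 7 was at 0 throughout a group, and their part in the Prdm1 difference was not tested.

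Myb, a factor of blood progenitors and dividing lymphoid cells (ENSMUSG00000019982, chromosome 10, 21124936 to 21160905, minus strand), was lower in iILC1 in both genotypes. It lay at 66.7, 88.9 and 44.5 CPM in control iNK and at 70.4, 61.4, 104 and 121 CPM in cKO iNK. The iILC1 values were 13.7, 13.5 and 12.8 CPM in control and 21.8, 11.9, 13.8 and 15.5 CPM in cKO, all below every iNK library. The log2 difference was −2.32 in control (SE 0.298, adjusted p = 8.5e-06) and −2.50 in cKO (SE 0.25, adjusted p = 3.45e-08). Per kilobase, 14.7% and 9.1% of the silent receptor genes lay above Myb in control and cKO iILC1, and none did in either iNK group, so the remaining iILC1 signal was within the range of background reads. Myb averaged 3.27 and 3.85 CPM per kb there, against medians of 1.23 and 0.956 for the silent receptor genes. Of the Myb exons, 12% overlap the antisense gene Gm26577, which had at most 15 counts in a library. A list of 15 genes of dividing cells moved with Myb between the cell types. All 15 were lower in control and 9 in cKO iILC1, and their summed level was 2460 to 3610 CPM in control iNK, 1300 to 1750 in cKO iNK, 878 to 1230 in control iILC1 and 738 to 965 in cKO iILC1. Between genotypes the list and Myb went opposite ways. In cKO iNK 4 of the 15 were called lower (median log2 difference −0.895), whereas the Myb estimate was 0.422, not called. In iILC1 the list's median was −0.306 and the Myb estimate 0.242, with 0 of the list called in edgeR. The part of these genes in the Myb difference between the cell types was not tested.

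Irf8, an interferon regulatory factor used by NK, B and dendritic cells (ENSMUSG00000041515, chromosome 8, 120736358 to 120756694, plus strand), ranged from 225 to 380 CPM in control iNK and from 181 to 278 CPM in cKO iNK. It ranged from 97.2 to 131 CPM in control iILC1 and from 96.6 to 184 CPM in cKO iILC1. The cell types did not overlap in control, and in cKO the highest iILC1 library, replicate 1, passed the lowest iNK library. The log2 difference was −1.34 in control (SE 0.259, adjusted p = 0.002) and −0.86 in cKO (SE 0.221, adjusted p = 0.0202). The cKO call was lost in 4 leave-outs, with an adjusted p of 0.087 without cKO iNK replicate 1, 0.0675 without cKO iNK replicate 3, 0.0683 without cKO iILC1 replicate 3 and 0.0516 without cKO iILC1 replicate 4. A list of 12 dendritic cell genes summed to 471 to 732 CPM in control iNK, 567 to 827 in cKO iNK, 383 to 486 in control iILC1 and 347 to 440 in cKO iILC1, with none of the 12 at 0 throughout a group. Itgax, for the integrin CD11c, made up most of that difference, at 418 and 401 CPM in control and cKO iNK and 194 and 135 CPM in control and cKO iILC1. The median log2 difference of the 12 between the cell types was 0.46 in control and −0.37 in cKO. In control iILC1 2 were called lower (Cox6a2 and Itgax) and none higher in edgeR's test, and in cKO iILC1 3 were lower (those and Spib) and Bst2 was higher. The part of dendritic cell RNA in the Irf8 difference was not tested.

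The first of 2 Irf8 promoter windows in RefSeq, at chr8:120736108-120736407 on the plus strand of GRCm38.p6, is shown because it held the STAT5 letters, the motif of the factor downstream of IL-15. Of the 11 windows of the 7 factors in the table, 2 overlapping Zeb2 windows also held them, in 1 shared match. The layout is as for the T-box genes.
Irf8: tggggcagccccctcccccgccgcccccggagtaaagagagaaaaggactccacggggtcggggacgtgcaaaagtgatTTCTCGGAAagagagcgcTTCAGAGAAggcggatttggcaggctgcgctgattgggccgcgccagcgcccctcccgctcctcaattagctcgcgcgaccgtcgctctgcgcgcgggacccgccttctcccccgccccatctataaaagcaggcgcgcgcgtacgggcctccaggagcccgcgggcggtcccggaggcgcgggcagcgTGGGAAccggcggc
The capitals are 2 STAT5 matches, which begin 171 and 153 bases before the start, and an Ikaros match after it. A match says nothing on binding.

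Ikzf2, for Helios (ENSMUSG00000025997, chromosome 1, 69531214 to 69687245, minus strand), was higher in iILC1, and its 4 groups formed an order. It lay at 60, 45 and 59.3 CPM in control iNK and at 74.6, 79.7, 113 and 104 CPM in cKO iNK. Next came control iILC1 at 133, 130 and 111 CPM, then cKO iILC1 at 245, 179, 150 and 146 CPM. Within each cell type the genotypes did not overlap, while cKO iNK and control iILC1 did. The log2 difference of iILC1 from iNK was 1.19 in control (SE 0.24, adjusted p = 0.00316) and 0.95 in cKO (SE 0.204, adjusted p = 0.00388). A list of 12 T cell genes (11 of them tested), of which 4 were called higher in control and 3 in cKO iILC1, moved in the same direction. Its summed level overlapped between the cell types, at 625 to 959 CPM in iNK and 646 to 1200 CPM in iILC1 libraries. Between genotypes in iILC1, edgeR called 1 T cell gene, Trac, lower in cKO (−1.46, adjusted p = 0.0272), and the list's median was −0.25. The Ikzf2 estimate there was 0.53, not called. The list's part in the Ikzf2 difference was not tested.

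Ikzf3, for Aiolos, a relative of Helios (ENSMUSG00000018168, chromosome 11, 98464902 to 98546031, minus strand), overlapped between all groups, at 320 to 562 CPM in control iNK, 257 to 446 in cKO iNK, 258 to 422 in control iILC1 and 357 to 583 in cKO iILC1. The cell types differed by −0.52 in control (95% interval −1.08 to 0.04, adjusted p = 0.275) and 0.25 in cKO (95% interval −0.24 to 0.73, adjusted p = 0.916). The background covariate turned the sign of the former (0.05) and gave a call for the latter (0.40, adjusted p = 0.0344). Per kilobase, Ikzf2 stood at 0.0702 to 0.14 of Ikzf3 in control iNK, 0.126 to 0.233 in cKO iNK, 0.238 to 0.38 in control iILC1 and 0.301 to 0.34 in cKO iILC1. Aiolos transcripts thus exceeded Helios transcripts in all 14 libraries, least so in iILC1.

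Zeb2 encodes a zinc finger repressor tied to later NK maturation (ENSMUSG00000026872, chromosome 2, 44983632 to 45117395, minus strand). It was at 44.3 to 87.6 CPM in control iNK and 65 to 100 CPM in cKO iNK. In iILC1 it was at 37.4 to 54.1 CPM in control and 35.3 to 42.9 CPM in cKO. The log2 difference of iILC1 from iNK was −1.06 in cKO (SE 0.214, adjusted p = 0.002) and −0.74 in control (SE 0.249, adjusted p = 0.09). In control cells, iNK replicate 3 was at 44.3 CPM and the other 2 iNK libraries at 86.1 and 87.6 CPM. Without that library the difference was −1.01 (adjusted p = 0.0147), with DESeq2 the adjusted p was 0.0341, and with the background covariate the difference was −0.28 (adjusted p = 0.697). The deposited Zeb2 gene model holds 19908 bases of exon, and per kilobase Zeb2 averaged 3.65 and 4.17 CPM in control and cKO iNK, where 4.7% and 6.15% of the silent receptor genes lay higher, so that it was near their 95th percentiles (3.54 and 4.43 CPM). In iILC1 it averaged 2.19 and 2.0 CPM, and 28.5% and 27.5% of them lay higher, which is within the range of background reads. Per kilobase, the 2 levels behind the Zeb2 call in cKO thus lay near and below the 95th percentile of silent receptor genes. Both lay above the medians of those genes, which were 0.766 CPM per kb in cKO iNK and 0.956 in cKO iILC1. A value per kilobase depends on the length of the deposited model. Zeb2 had 469 to 1024 counts per library in cKO iNK and 248 to 354 in cKO iILC1.

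Nfil3, a basic leucine zipper factor needed for NK and ILC precursors (ENSMUSG00000056749, chromosome 13, 52967209 to 52981073, minus strand), had its highest levels in control iNK, at 57.3 to 106 CPM. It was at 36.7 to 64.9 CPM in cKO iNK, 37.4 to 55 CPM in control iILC1 and 22.6 to 50.6 CPM in cKO iILC1. In control cells the cell types did not overlap, with a log2 difference of −0.83 (95% interval −1.41 to −0.25, adjusted p = 0.0938), which was called under 5 of 15 alternatives. Those were DESeq2, no filter, the fit of the 2 groups alone, the replicate block and the fit without control iNK replicate 3 (adjusted p of 0.0287 to 0.0459). With the background covariate, which was itself higher on average in control iILC1 than in control iNK, the difference was −0.27 (adjusted p = 0.759). In cKO cells the difference was −0.52 (95% interval −1.02 to −0.03, adjusted p = 0.445).

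**Figure D3:**
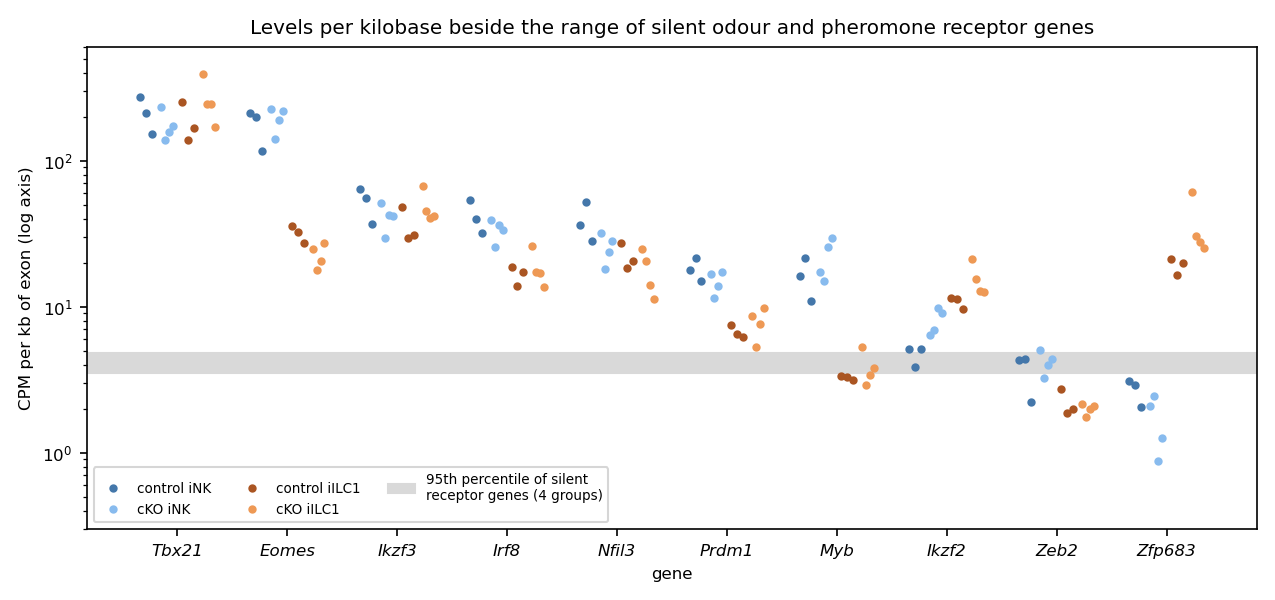
CPM per kb of exon (log axis) of each gene in each library, coloured by group. The grey band spans the 95th percentiles of silent receptor genes in the 4 groups, from 3.54 to 4.84 CPM per kb, and Zfp683 in iNK, Myb in iILC1 and Zeb2 in both cell types lie in or below it, except for Myb in cKO iILC1 replicate 1 and Zeb2 in cKO iNK replicate 1.

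The comparison of genotypes asked how the 10 factors stood where the Vav-Cre transgene was present to delete Il15. None passed the test in iNK or in iILC1. In edgeR's test 0 of 10 were called in iNK (0.408% of all genes were) and 0 of 10 in iILC1 (0.0482%). At an unadjusted p below 0.05 there were 2 in each cell type, Ikzf2 and Nfil3 in iNK and Ikzf2 and Zfp683 in iILC1, and DESeq2 also called 0 in each. Libraries of the genotypes did not overlap for 1 factor in iNK (Ikzf2), where 8.84% of all genes did not, and for 2 in iILC1 (Ikzf2 and Zfp683), where 5.48% did not. The median log2 difference of cKO from control was −0.29 in iNK and 0.23 in iILC1, against 0.06 and 0.02 over all genes tested.

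The intervals show what sizes remain possible. For Eomes the difference of cKO from control was 0.14 in iNK (95% interval −0.36 to 0.63, adjusted p = 0.928) and −0.48 in iILC1 (−0.98 to 0.02, adjusted p = 0.979). For Tbx21 it was −0.28 (−0.85 to 0.29) in iNK and 0.51 (−0.07 to 1.08) in iILC1. An Eomes change of 2-fold either way in iNK, or of more than 2-fold in iILC1, thus lies outside these intervals, whereas a doubling of Tbx21 in iILC1 does not. Prdm1, Zeb2, Myb, Irf8 and Ikzf3 had log2 differences of −0.34 to 0.42 in both cell types, and their 95% intervals all held 0.

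Ikzf2 was the factor with the smallest p for genotype in iNK. Its log2 difference of cKO from control was 0.76 in iNK (95% interval 0.30 to 1.23, adjusted p = 0.201), a 1.70-fold higher estimate, and 0.53 in iILC1 (95% interval 0.08 to 0.99, adjusted p = 0.979). With a filter at 5 CPM, the iNK value was 0.80 (adjusted p = 0.023), and with the background covariate 0.83 (adjusted p = 0.0146). The other 14 alternatives gave an adjusted p of 0.0505 to 0.517. Averaged over both cell types, a contrast added after the separate values had been seen, Ikzf2 differed by 0.65 (95% interval 0.32 to 0.97, adjusted p = 0.0659), with 0.385% of all genes called and 0 of the 10 factors. Cells of both types thus had a higher Ikzf2 level in all 8 cKO libraries than in the control libraries of their type, without a called difference.

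Zfp683 had a log2 difference of 0.91 in iILC1 (95% interval 0.31 to 1.52, adjusted p = 0.832) and −0.71 in iNK (−1.46 to 0.05, adjusted p = 0.673). Without cKO iILC1 replicate 1 the iILC1 value was 0.53 (adjusted p = 1). Nfil3 had −0.62 in iNK (−1.15 to −0.09, adjusted p = 0.523) and −0.31 in iILC1 (−0.85 to 0.23, adjusted p = 0.979). The difference between the genotype effects, iILC1 minus iNK, passed for 0 of the 10 factors in edgeR, where 0.0778% of all genes did, and for 0 in DESeq2. At an unadjusted p below 0.05 it stood out for Zfp683 (1.62, 95% interval 0.65 to 2.59, adjusted p = 0.442) and Ikzf3 (0.77, 95% interval 0.03 to 1.51, adjusted p = 0.705). For Eomes it was −0.62 (−1.33 to 0.09) and for Tbx21 0.79 (−0.02 to 1.59). Genotype and cell type comparisons share libraries, so their values are not independent.

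**Figure D4:**
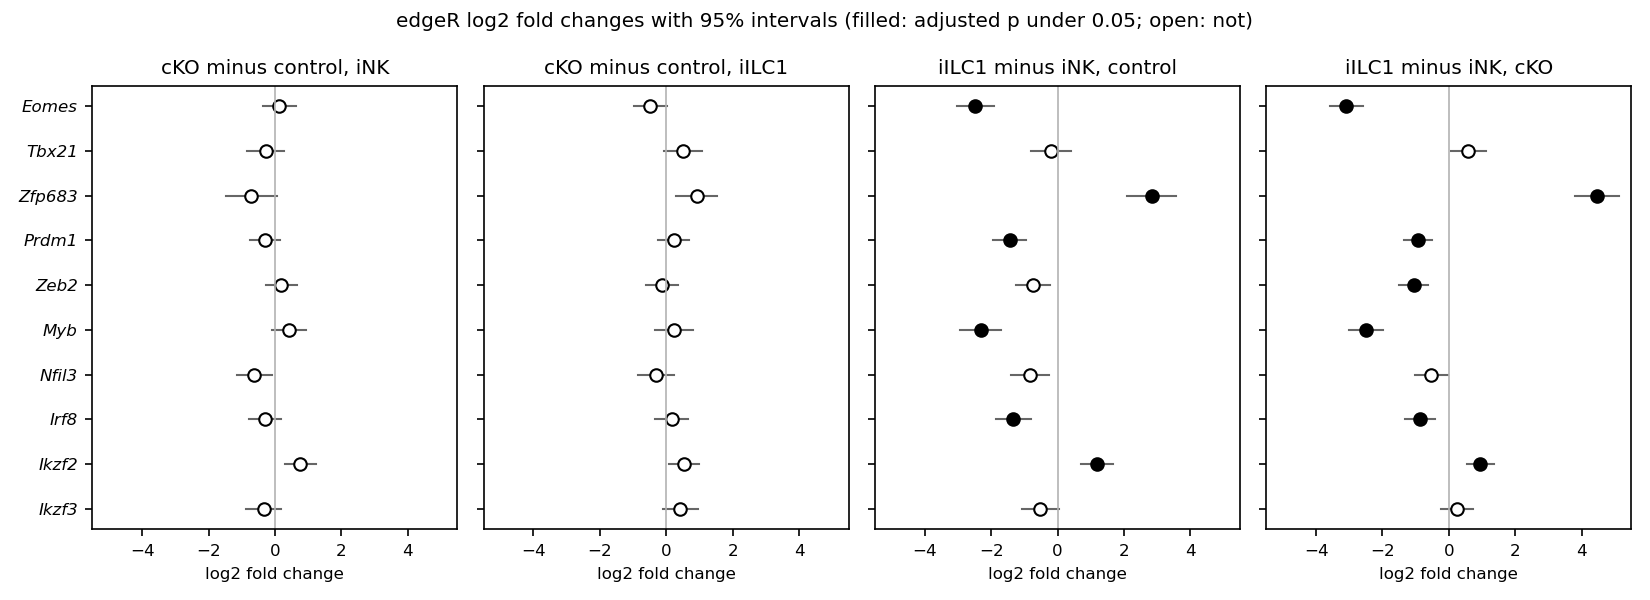
Log2 fold changes of the 10 genes with 95% intervals in 4 comparisons, from edgeR. Filled points passed an adjusted p of 0.05. No point is filled for genotype, and 6 and 7 are filled between the cell types in control and cKO cells.

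Cells of the B lineage also use Irf8 and Ikzf3, and B-cell transcripts moved with genotype in iNK. Of 13 B-cell genes 7 rose in cKO iNK, among them Cd79b and Ly6d, and their summed level was 276 to 384 CPM in cKO iNK, 76.1 to 102 CPM in control iNK and 93 to 146 CPM in iILC1 libraries. Irf8 and Ikzf3 had estimates of −0.31 and −0.34 there, neither called. The part of B-lineage RNA in these values was not tested. With marker genes of other cells, ribosomal and mitochondrial genes left out before scaling, 0 factors were called for genotype in either cell type. That step keeps any B-lineage reads counted in Irf8 and Ikzf3, so it cannot test their part.

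Other regulators of NK and ILC development, from a list of 32, give the setting. In control iILC1, 5 were higher and 1 lower than in iNK, and in cKO iILC1 6 were higher and 4 lower. Ahr, the receptor for aryl hydrocarbons, differed by 1.44 in control (adjusted p = 0.000334) and 2.14 in cKO (adjusted p = 1.73e-08). Rora, a nuclear receptor of ILC2s and ILC precursors, differed by 1.44 (adjusted p = 0.000434) and 2.14 (adjusted p = 2.97e-08), and Maf by 1.49 (adjusted p = 0.0011) and 2.68 (adjusted p = 3.66e-09). For genotype, the single call among the 32 was Id3, an inhibitor of E proteins, in iNK. Id3 averaged 4.35 ± 1.65 CPM in 3 control libraries and 21.6 ± 6.8 CPM in 4 cKO libraries (mean ± SD). Its log2 difference was 2.31 (adjusted p = 0.000355), and its effect differed between the cell types (−2.46, adjusted p = 0.0408). Among 12 relatives of the 10 factors, Irf4, close to Irf8 and active in B and plasma cells, was likewise the single call in iNK (1.83, adjusted p = 0.0134). It averaged 2.56 ± 0.977 CPM in control and 9.18 ± 1.09 CPM in cKO iNK. In iILC1 0 of the 32 regulators and 0 of the 12 relatives were called for genotype in edgeR. In cKO iNK, where Id3 and Irf4 were called higher, 7 of the 13 B-cell genes above were called higher too. Irf4 was also higher in control iILC1 than in control iNK (8.31 against 2.56 CPM, log2 difference 1.68, adjusted p = 0.0118), where 0 of the 13 B-cell genes were called in edgeR and their median difference was 0.36. Its genotype effect differed between the cell types as well (−2.47, adjusted p = 0.0448). The part of B-lineage RNA in the Id3 and Irf4 values was not tested.

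Gene lists tied to these factors separated the cell types too. Of 20 genes of conventional and maturing NK cells, 12 were lower and 1 higher in control iILC1 (median −1.42), and 11 were lower and 2 higher in cKO iILC1 (median −1.14). Of 20 ILC1-associated genes, 10 were higher in control (median 1.02) and 15 in cKO iILC1 (median 1.83), and none lower in edgeR's test. The sort gates used products of Itga2, Itgam, Cd27, Il7r and Itga1, which these lists hold.

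For each factor, the genes with the most similar profile were sought over the 14 libraries, by Pearson's r of log2(CPM + 1), among 10406 genes with a mean of at least 10 CPM. The libraries share 2 cell types, depth and background, so r is only a description. Col8a2 (r = 0.994) and the pseudogene Klra14-ps (r = 0.988), whose reads may be shared with other Klra genes, were most like Eomes. Col8a2, a collagen gene, averaged 72.6 and 85 CPM in control and cKO iNK and 6.42 and 4.06 CPM in control and cKO iILC1. Tnfrsf25, for a receptor of the TNF family, and Psd2, each with r = 0.983, were most like Zfp683, with Tnfrsf25 at 1.75 and 1.09 CPM in iNK and 54.1 and 119 CPM in iILC1. For Myb they were Itm2a (r = 0.989) and Mef2c (r = 0.984), and for Ikzf2 Apol7b (r = 0.938) and Rora (r = 0.921). Rora followed the order of Ikzf2 over the 4 groups, with means of 49.5, 65.4, 135 and 289 CPM. Tbx21 (Cyth4 and Sept11), Prdm1 (Dglucy and Adap1), Zeb2 (As3mt and Jak1), Nfil3 (Ppp3cc and Bid) and Ikzf3 (Fbxo42 and U2af1l4) had r of 0.942 to 0.968 with these genes.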

How the data were processed

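The authors deposited 1 table of raw, unscaled counts per Ensembl gene for 14 libraries, per the file headers. The submitters' processing notes name build mm10, HISAT2 2.1.0, Trimmomatic 0.33 and Subread 1.6.5 (featureCounts). Annotation release, strand setting and treatment of reads with several hits are not given in the sources used here. Per the labels' protocols, cDNA came from a SMART-Seq v4 kit and libraries from Nextera XT, which do not mark strand, so overlapping antisense genes cannot be told apart.

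Symbols matched 45143 of 46078 identifiers (97.97%). Counts were filtered (filterByExpr, minimum count 10, minimum total 15), scaled by TMM and fitted in edgeR 4.0.16 (R 4.3.3) with 1 mean for each of 4 groups and 10 residual degrees of freedom (common biological coefficient of variation 30%). The two-sided quasi-likelihood F test was adjusted by Benjamini-Hochberg over 26990 genes, with a threshold of 0.05. SEs came from the F statistic, and intervals are 95%. On simulated data with 200 changed genes, the script recovered 45% of 2-fold and 99% of 4-fold changes for genotype in iNK, and 44% and 100% for genotype in iILC1. The changed genes had a mean of at least 10 CPM over all libraries, and no noise was shared across the genes of a library. The alternatives used DESeq2 1.42.0, other scaling, filters, covariates and left-out libraries.

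The text names all 10 factors, up to 3 called members of a list with the smallest p, and the 2 genes most like each factor. Some genes that this rule names are not reported here. The factors, lists and tests were chosen with earlier results of these data known. The labels do not say that samples came from separate mice, so p-values measure the spread between these samples. Replicates differed by more than sampling noise (chi-square per degree of freedom 4.97 to 27.1). The promoter table held 7 of the 10 genes, without Zfp683, Ikzf2 and Ikzf3.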

Additional observations from a re-analysis of the deposited data

Results flagged for a closer look

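Zfp683 in cKO iILC1 replicate 1 stood apart from its group, at 90.4 CPM where the other 3 libraries lay at 37.1 to 44.7 CPM, a gap of 0.858 of the group's range. On this linear CPM scale the gap passes Dixon's 95% limit for 4 samples, and the log2 scale was not tried. It was the single such value in the 20 sets tested, 10 factors in each of 2 groups of 4, where chance flags about 1 set in 20. The same library had 10308693 counts, the most of its group, and the least receptor gene background of it (1539 CPM). Whether these move Zfp683 was not tested.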

How the results depend on the processing

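Over 23 alternatives, the 6 factors called between cell types in control cells were called under all 15 that apply. Of the 7 called in cKO cells, 6 were called under all 17, and Irf8 was lost in the 4 leave-outs given above. For genotype in iNK, 1 factor (Ikzf2) was called with the filter at 5 CPM and 1 with the background covariate, and 0 under the others. Estimates that changed sign were never called. With the background covariate, Irf8 for genotype in iILC1 became −0.013, Tbx21 and Ikzf3 between cell types in control 0.422 and 0.049, and the Nfil3 interaction −0.111. Without the 2 libraries lowest on the first principal component (control iNK replicate 1 and cKO iILC1 replicate 1), Irf8 for genotype in iILC1 was −0.045 and Tbx21 between cell types in control 0.019. Leaving out 1 library gave ranges of −0.079 to 0.308 (Eomes) and −0.055 to 0.37 (Zeb2) for cKO against control iNK. In iILC1 the same contrast gave −0.224 to 0.06 (Zeb2) and −0.048 to 0.261 (Irf8). For Tbx21 between cell types in control the range was −0.493 to 0.025, and for the Myb interaction −0.48 to 0.031. The cause was not tested.

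Counts over all genes moved more. Genotype in iNK called 110 genes, 63 to 87 in leave-outs and 97 to 382 otherwise. Genotype in iILC1 called 13, with 4 to 22 and 12 to 50, and the interaction 21, with 10 to 33 and 11 to 56. Cell type called 1056 in control, with 394 to 1701 and 850 to 2212, and 923 in cKO, with 713 to 1094 and 889 to 1659. The labels do not say whether replicate numbers pair the samples. Deviations of same-numbered libraries correlated at −0.12 to 0.43, and with so few numbers per comparison this cannot decide it. With the replicate block, no factor was called in either genotype comparison or the interaction (0 in each, from edgeR), 8 between cell types in control (Zeb2 and Nfil3 in addition) and 7 in cKO, and of all genes 175 for genotype in iNK, 30 in iILC1, 40 for the interaction, 2212 and 1206. With 3 and 4 libraries, 45% of simulated 2-fold changes were recovered for genotype in iNK, so a change of that size could be missed.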
